A study of Danio rerio with 4 samples.

Results

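The genes described here are 10 transcription factors that mark or pattern the nephron: *pax2a*, *pax8*, *hnf1ba*, *hnf1bb*, *hnf4a*, *osr2*, *emx1*, *irx3b*, *mecom* and *lmx1bb*. They were taken as a list of names, chosen with earlier results of these data known. All 10 were found among the 28357 genes listed in any library and the 23812 genes listed in all 4. The cells came from kidneys of AB zebrafish taken on day 4 after an intraperitoneal dose of gentamicin, an aminoglycoside antibiotic that damages the tubule. Each fish received 20 µl at 2.7 µg/µl. There were 4 libraries of this single condition and no uninjured fish, so the comparisons below are between cell types of injured kidneys. Kidneys were dissociated with trypsin, which leaves each cell without its position in the nephron. Cells were captured with the BD Rhapsody system, in which a cell shares a microwell with a barcoded bead and each captured transcript is counted once by its unique molecular identifier (UMI). Which fish went into which library is not stated, so p-values measure the spread between these 4 libraries, which may be smaller than that between fish.

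Nephron transcription factors act in a sequence. The paired-box factors Pax2 and Pax8 start the renal lineage, and HNF4A, a nuclear receptor, is needed in mice for the proximal tubule to mature. In the zebrafish embryo, *emx1*, *irx3b* and *mecom* are known for their expression or function in distal parts of the pronephros, and *osr2* is an odd-skipped zinc finger gene related to the early kidney regulator *osr1*. *lmx1bb* is an orthologue of mouse *Lmx1b*, a LIM-homeobox gene best known in the kidney for its function in podocytes. *hnf1ba* and *hnf1bb* are a pair of zebrafish paralogues that encode homeodomain factors of the tubule epithelium.

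The 4 libraries held 31008 cells and between 59350367 and 87759842 UMIs each, with a median of 4358 to 4643.5 UMIs per cell in libraries 1 and 2 and of 9883 to 9953.5 in libraries 3 and 4. The 2 pairs of libraries also listed different genes, since several mitochondrial transcripts were listed in libraries 3 and 4 only. Libraries 1 and 2 shared 108 barcodes and libraries 3 and 4 shared 46, against between 1 and 7 for any library of 1 pair with any of the other. The tests below treat the 4 libraries as separate units. Cells were clustered with the 10 genes kept out of the variable genes, and clusters were named by marker lists without these genes. The classes were 146 nephron progenitor-like (NPC-like) cells, 69 multiciliated-like cells, 344 proximal tubule-like (PT-like) cells and 1019 distal tubule-like (DT-like) cells, in all 5.09% of cells. A further 18368 cells, called non-nephron here, fell into clusters named for interstitial, endothelial, mucin-secreting, blood and immune types, and 11004 cells were left unnamed. Of the markers listed in the files, 16 of 16 proximal, 25 of 25 multiciliated and 12 of 12 progenitor markers were highest in their own class among the nephron classes, against 12 of 16 distal markers in DT-like cells. Clusters were named by these same lists, so this is not an independent check. The kidney markers were also chosen with the authors' published markers, which come from these cells. The leading genes of the multiciliated-like sub-cluster, among them *guca2b*, *stm* and *epcam*, held none of the multiciliated markers.

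The set was concentrated in nephron cells. *hnf1bb* had 4575 of its 4675 UMIs (97.9%) in the 4 nephron classes, *emx1* 97.7%, *hnf1ba* 97.2%, *pax2a* 96.7% and *pax8* 96.7%. For *irx3b* the share was 86.6% of 172 UMIs, for *hnf4a* 86.0% of 364, for *osr2* 71.4% of 633 and for *lmx1bb* 71.1% of 467. The exception was *mecom*, with 42.2% of 1423 UMIs in nephron cells. A level is given as CPM, the UMIs of a gene per 1000000 UMIs of a class in 1 library. UMIs were summed for each class of a library and compared with edgeR's quasi-likelihood test, with p-values adjusted over all genes tested and called at 0.05. Against non-nephron cells, 9 of the 10 genes were called, where 49.2% of all 19342 genes tested were. All 9 were higher in nephron-class cells (24.1% of all genes) and 0 were lower (25.1% of all genes). The median log2 fold of all 10 was 7.95, beside -0.15 over all genes tested. *hnf1bb* averaged 289 ± 51.4 CPM in nephron-class cells and 0.390 ± 0.0918 CPM in non-nephron cells (SD over 4 libraries). The log2 fold was 9.44 ± 0.22 (SE), with an edgeR adjusted p = 2.0e-07. *mecom* had a log2 fold of 3.12 ± 1.16 and missed the threshold (edgeR adjusted p = 0.051), and it passed when the library was a term of the fit (log2 fold of 3.28, edgeR adjusted p = 5.2e-06).

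**Figure D1:**
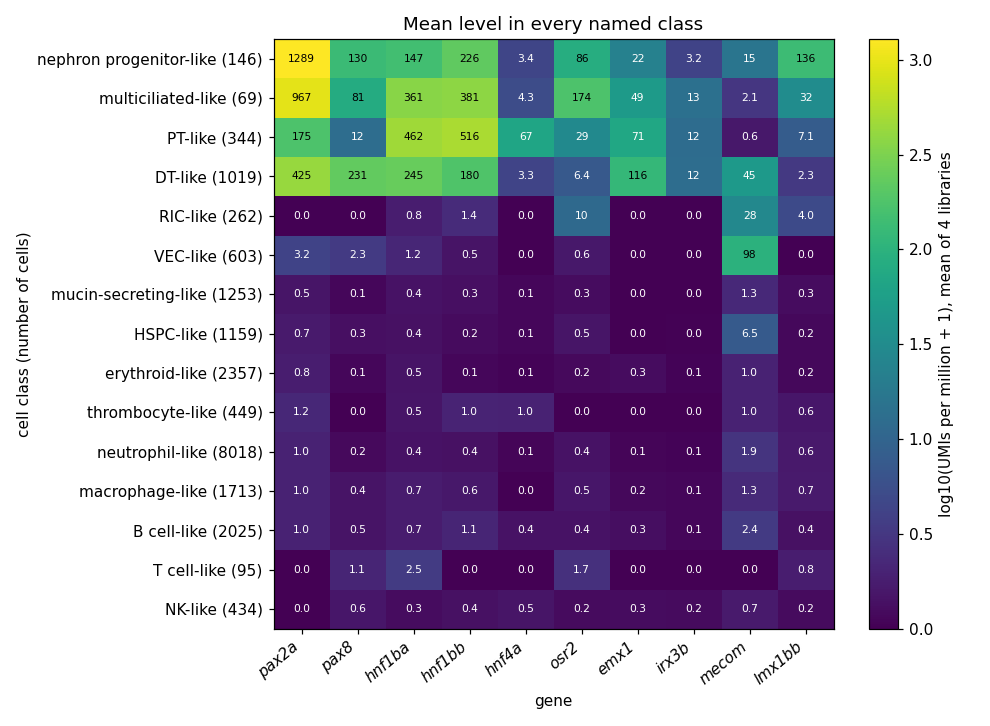
Heat map of the mean level of each gene (columns) in each named class (rows, with the number of cells), as log10 of CPM plus 1, with the mean CPM of 4 libraries printed in each field. The upper 4 rows are the nephron classes. Below them the genes lie near 0, except *mecom*, which reaches 97.9 in VEC-like (vascular endothelial) and 27.7 in RIC-like (renal interstitial) cells, and *osr2*, which reaches 10.5 in RIC-like cells.

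Single cells showed the same concentration. At least 1 of the 10 genes had a UMI in 93.2% of NPC-like, 82.6% of multiciliated-like, 94.2% of PT-like and 81.6% of DT-like cells. The share was 2.98% in neutrophil-like cells, which are taken here as the background. For *mecom* this background was uneven, with 121 UMIs (3.80 CPM) in libraries 3 and 4 and 2 UMIs (0.0791 CPM) in libraries 1 and 2. Whether these UMIs are free RNA was not tested. The median cell had 10734 UMIs in the NPC-like class, 10759 in the multiciliated-like, 9156.5 in the PT-like, 6351 in the DT-like and 6351.5 in the neutrophil-like class, so the median depth of DT-like and neutrophil-like cells was alike. After each cell was thinned to 1000 UMIs, the share with any of the genes was 71.3% in NPC-like, 60.3% in multiciliated-like, 64.9% in PT-like and 54.5% in DT-like cells, with 0.52% in neutrophil-like cells. Thinning left out 3, 1, 5, 42 and 138 cells of these classes as too shallow. At least 4 of the genes were found together in 49.1% of PT-like and 32.0% of DT-like cells. They were found so in 0 of 8018 neutrophil-like cells, where a count of 0 puts the upper limit at 0.0374%. Of the 40 pairs of a gene and a nephron class, 38 had a share of cells with a UMI whose exact 95% interval lay above that of neutrophil-like cells, and 33 did so after thinning. The exceptions before thinning were *mecom* in PT-like and in multiciliated-like cells. All such intervals, and the limit for 0, take in counting error alone.

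The nephron classes used the set in different combinations. Between PT-like and DT-like cells 6 of the 10 genes were called, where 36.7% of all 9625 genes tested were, with 3 higher (16.2% of all genes) and 3 lower (20.5%) in PT-like cells. Between multiciliated-like and DT-like cells 6 were called (21.3%), with 3 higher (8.82%) and 3 lower (12.5%) in multiciliated-like cells. Between multiciliated-like and PT-like cells 5 were called (32.5%), with 3 higher (15.5%) and 2 lower (17.0%) in multiciliated-like cells. Between NPC-like and DT-like cells 8 were called (30.4%), with 3 higher (14.5%) and 5 lower (15.9%) in NPC-like cells. Between NPC-like and PT-like cells 9 were called (44.4%), with 4 higher (23.3%) and 5 lower (21.1%) in NPC-like cells. Between NPC-like and multiciliated-like cells *hnf1ba* alone was called (20.2%), with 0 higher (10.2%) and *hnf1ba* lower (9.97%) in NPC-like cells. These comparisons share their sums, so they are not independent of each other. With the library as a term of the fit, 9 genes were called in PT-like against DT-like cells, 5 higher and 4 lower. Of all 9625 genes, 1992 were then higher and 2500 lower. In NPC-like against PT-like cells 10 were called with this term, 5 higher and 5 lower, beside 2778 and 2365 of all genes. Fold changes are on edgeR's TMM scale and need not equal the ratio of CPM. TMM mattered most where NPC-like or multiciliated-like cells were compared with PT-like or DT-like cells. Between NPC-like and multiciliated-like cells the median log2 fold of all genes was 0.17 without TMM factors and 0.13 with them. In PT-like against DT-like cells it was 0.06 and -0.07. Without TMM factors the median log2 fold of all genes in NPC-like against DT-like cells was 0.61, beside -0.03 with them, and the calls were 2543 higher and 681 lower, beside 1396 and 1529. The splits were 3225 and 1224 beside 2243 and 2028 in NPC-like against PT-like cells (medians of 0.68 and 0.18), 1708 and 487 beside 849 and 1202 in multiciliated-like against DT-like cells (0.47 and -0.11), and 2048 and 969 beside 1491 and 1641 in multiciliated-like against PT-like cells (0.45 and 0). Lower calls were lost without TMM for *hnf1ba*, *irx3b*, *mecom* and *pax8* in NPC-like against DT-like cells, *irx3b* in NPC-like against PT-like cells, *hnf1ba* in NPC-like against multiciliated-like cells, *emx1* and *pax8* in multiciliated-like against DT-like cells and *hnf1bb* in multiciliated-like against PT-like cells. Higher calls were gained without TMM for *hnf1bb* in multiciliated-like against DT-like cells (1.1, edgeR adjusted p = 0.035), *osr2* in NPC-like against PT-like cells (1.64, edgeR adjusted p = 0.031) and *lmx1bb* in NPC-like against multiciliated-like cells (2.20, edgeR adjusted p = 0.043).

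**Figure D2:**
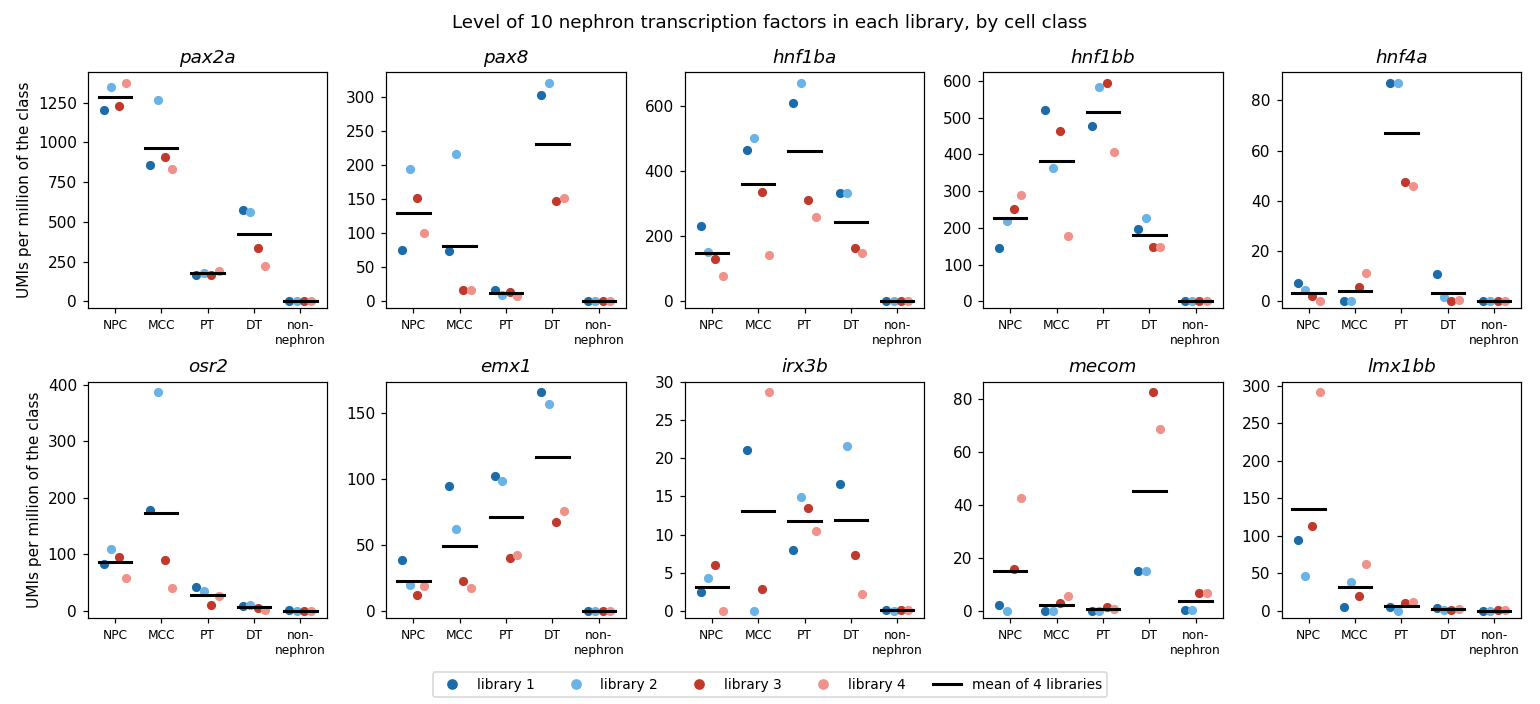
Level of each gene in CPM (vertical axis, scaled to each gene) in nephron progenitor-like (NPC), multiciliated-like (MCC), PT-like, DT-like and non-nephron cells. Points are libraries 1 to 4 and bars the mean of the 4. *pax8* is lowest of the nephron classes in PT-like cells, *hnf4a* stands out in PT-like cells, and *pax2a* is highest in NPC-like cells.

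*pax2a* was the most abundant of the 10 genes and its level by class followed the order NPC-like, multiciliated-like, DT-like, PT-like. NPC-like cells held 1203, 1348, 1229 and 1376 CPM in libraries 1 to 4, multiciliated-like cells 857, 1266, 908 and 835, PT-like cells 165, 180, 169 and 188, and DT-like cells 576, 562, 338 and 225. The libraries of PT-like cells did not overlap with those of any other nephron class, while NPC-like and multiciliated-like cells overlapped. The order did not hold for sub-clusters. Those of DT-like cells averaged from 150 to 1206 CPM, and the 2 of PT-like cells 160 and 218. The highest, led by *tnks1bp1* and *sox13*, was above the NPC-like class in libraries 1 and 2 (1843 and 1399 CPM). *pax2a* fell in PT-like against DT-like cells, with a log2 fold of -1.34 ± 0.24 (edgeR adjusted p = 0.00028), and rose in NPC-like against PT-like cells, with 2.42 ± 0.25 (edgeR adjusted p = 3.0e-06), and in multiciliated-like against PT-like cells, with 2.02 ± 0.24 (edgeR adjusted p = 1.4e-05). In NPC-like against DT-like cells it rose by 1.08 ± 0.24 (edgeR adjusted p = 0.0025). In multiciliated-like against DT-like cells the log2 fold of 0.68 ± 0.23 was close to the threshold (edgeR adjusted p = 0.049), and the call was lost without library 1, 2, 3 or 4 (edgeR adjusted p = 0.085, 0.20, 0.16 and 0.27). *pax2a* was also among the leading genes of the NPC-like sub-cluster, although it took no part in the clustering. It had a UMI in 83.6% of NPC-like cells (exact 95% interval of 76.5% to 89.2%), beside 0.47% of neutrophil-like cells.

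*pax8*, the partner of *pax2a* in the early lineage, had a different pattern and was almost missing from proximal cells. PT-like cells held 16.9, 8.70, 13.5 and 8.05 CPM in libraries 1 to 4, against 303, 321, 148 and 151 in DT-like cells. Every library of DT-like cells lay above every library of PT-like cells. The log2 fold was -4.34 ± 0.55 (edgeR adjusted p = 1.4e-05), the lowest adjusted p among the 10 genes in this comparison. NPC-like cells held 75.3, 195, 151 and 99.9 CPM, a rise against PT-like cells of 3.0 ± 0.54 on the log2 scale (edgeR adjusted p = 0.00031). Against DT-like cells *pax8* was called lower in NPC-like cells, by -1.34 ± 0.48 (edgeR adjusted p = 0.042), a call lost without library 1, 3 or 4 (edgeR adjusted p = 0.19, 0.055 and 0.087). Multiciliated-like cells were uneven, with 73.6, 216, 17.0 and 17.2 CPM. Their *pax8* was called lower than in DT-like cells, by -2.23 ± 0.53 on the log2 scale (edgeR adjusted p = 0.0063), and higher than in PT-like cells, by 2.11 ± 0.57 (edgeR adjusted p = 0.0086). That second call was lost without library 2, with a log2 fold of 0.97 (edgeR adjusted p = 0.22), and in libraries 3 and 4 alone the fold was 0.18 (edgeR adjusted p = 0.87). When cells were assigned by markers without clustering, *pax8* was called neither lower in multiciliated-like than in DT-like cells (-0.77, edgeR adjusted p = 0.44) nor higher in NPC-like than in PT-like cells (1.55, edgeR adjusted p = 0.10).

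Among the nephron classes *hnf1ba* and *hnf1bb* were both highest in PT-like cells by the mean of the 4 libraries, and neither was confined to them. Multiciliated-like cells were above PT-like cells for *hnf1ba* in library 3 (337 against 312 CPM). They were so for *hnf1bb* in library 1 (520 against 477 CPM). *hnf1bb* stood at 477, 584, 595 and 406 CPM in PT-like cells, against 197, 227, 148 and 147 in DT-like cells. No library overlapped, and the log2 fold was 1.38 ± 0.28 (edgeR adjusted p = 0.00095). The call was lost when cells were assigned by markers without clustering (edgeR adjusted p = 0.052) and when the cells with the highest doublet scores were left out (edgeR adjusted p = 0.057). *hnf1ba* stood at 608, 670, 312 and 258 CPM in PT-like cells, against 333, 333, 164 and 149 in DT-like cells. Here the groups overlapped across libraries, although PT-like cells were above DT-like cells in each of the 4. The log2 fold of 0.81 ± 0.33 missed the threshold (edgeR adjusted p = 0.064), and it passed with the library as a term (0.74, edgeR adjusted p = 0.0090) and without library 4 (0.95, edgeR adjusted p = 0.029). Multiciliated-like cells held 463, 502, 337 and 143 CPM of *hnf1ba* and 520, 363, 464 and 177 of *hnf1bb*, both lowest in library 4. *hnf1bb* was lower in multiciliated-like than in PT-like cells (log2 fold of -0.90 ± 0.28, edgeR adjusted p = 0.021), and this call was lost without library 2 or 3 (edgeR adjusted p = 0.14 and 0.076). With the library as a term, *hnf1ba* was also lower in multiciliated-like than in PT-like cells (-0.81, edgeR adjusted p = 0.0078), beside -0.82 ± 0.34 without it (edgeR adjusted p = 0.073). NPC-like cells held the least *hnf1ba* of the nephron classes, with 231, 151, 129 and 78.7 CPM. It was lower there than in PT-like cells by -2.09 ± 0.35 (edgeR adjusted p = 0.00016), than in DT-like cells by -1.27 ± 0.34 (edgeR adjusted p = 0.0092) and than in multiciliated-like cells by -1.27 ± 0.34 (edgeR adjusted p = 0.016). The call against DT-like cells was lost without library 2 or 3 (edgeR adjusted p = 0.061 and 0.051), as was the call against multiciliated-like cells (edgeR adjusted p = 0.10 and 0.082). *hnf1bb* was lower in NPC-like than in PT-like cells by -1.63 ± 0.29 (edgeR adjusted p = 0.00026). Against multiciliated-like cells it was called lower only with the library as a term (-0.75, edgeR adjusted p = 0.046; -0.73 ± 0.29 and edgeR adjusted p = 0.082 without it) and without library 4 (-1.14, edgeR adjusted p = 0.031).

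*hnf1ba* and *hnf1bb* parted within the distal class. DT-like cells fell into 7 sub-clusters, and in 6 of them *hnf1ba* took between 45.5% and 66.9% of the UMIs of the pair. In the sub-cluster led by *tnks1bp1* and *sox13* (137 cells) it took 11.6% of 440 UMIs (exact 95% interval of 8.75% to 15.0%), and between 10.1% and 12.7% in each library. There *hnf1bb* stood at 811, 688, 769 and 526 CPM in libraries 1 to 4, beside 118, 77.3, 102 and 69.8 for *hnf1ba*. These *hnf1bb* levels were above those of PT-like cells in each library, and they came with *pax2a* at 1843, 1399, 1080 and 501 CPM. In the sub-cluster led by *slc9a3.2*, *rhcgb* and *rhbg* (91 cells), with a sodium-proton exchanger and ammonia transporters among its leading genes, *hnf1ba* took 63.5% of the pair, and both genes had a UMI in 78.0% of cells. In PT-like cells the share of *hnf1ba* was 46.1% (44.6% to 47.7%), and it was 34.4% and 38.8% in libraries 3 and 4, against 56.1% and 53.4% in libraries 1 and 2. The sub-cluster led by *tnks1bp1* and *sox13* was named DT-like by its markers but had no distal marker among its leading genes, and its cells were shallower than the others (median of 3330 UMIs). The largest distal sub-cluster, of 290 cells and led by mitochondrial transcripts, had none among its leading genes either. These are descriptions of sub-clusters, without a test.

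**Figure D3:**
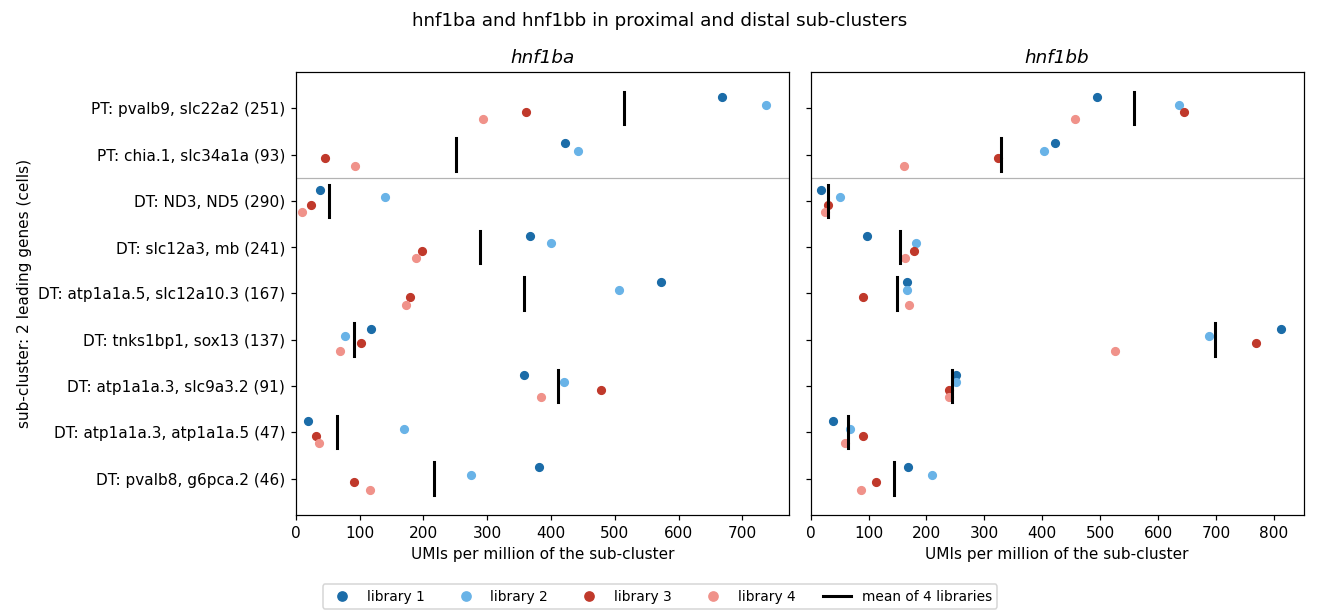
Level of *hnf1ba* (left) and *hnf1bb* (right) in CPM in the sub-clusters of PT-like (above the grey line) and DT-like cells, each labelled by 2 of its leading genes and its number of cells. Points are libraries 1 to 4 and bars their mean. In the *tnks1bp1* and *sox13* sub-cluster *hnf1bb* lies between 526 and 811 and *hnf1ba* between 69.8 and 118.

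*hnf4a* had the largest share of its UMIs in proximal cells among the 10 genes, with 285 of 364 UMIs (78.3%) in PT-like cells. It stood at 87.0, 87.0, 47.5 and 45.9 CPM there in libraries 1 to 4, against 11.04, 1.66, 0 and 0.64 in DT-like cells. The groups did not overlap, and the log2 fold was 4.58 ± 0.75 (edgeR adjusted p = 0.00014). Against PT-like cells it was lower in multiciliated-like cells by -4.17 ± 0.96 (edgeR adjusted p = 0.0027) and in NPC-like cells by -4.71 ± 0.86 (edgeR adjusted p = 0.00037). Those classes held 4 and 6 UMIs in all. Of the 18 UMIs in DT-like cells, 17 lay in the sub-cluster of 46 cells that had proximal (*g6pca.2*, *slc6a19b*) and distal (*atp1a1a.4*, *atp1a1a.3*) genes among its leading genes, and 5 of the 7 distal sub-clusters had 0. *hnf4a* had a UMI in 36.6% of PT-like cells (31.5% to 41.96%) and in 0.69% of DT-like cells. It was found in both PT-like sub-clusters, with 79.8, 89.8, 51.5 and 50.7 CPM in the one led by *pvalb9* and *slc22a2* and 109, 77.4, 25.7 and 23.1 in the one led by *slc34a1a* and *slc5a2*, which encode apical phosphate and glucose transporters.

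*osr2* was low in distal cells and higher in multiciliated-like than in PT-like or DT-like cells. Multiciliated-like cells held 179, 386, 90.5 and 40.02 CPM in libraries 1 to 4, PT-like cells 42.6, 34.8, 11.1 and 25.8, and DT-like cells 7.89, 10.8, 5.49 and 1.28. Multiciliated-like and DT-like cells did not overlap, and the log2 fold was 4.17 ± 0.57 (edgeR adjusted p = 0.00011). Against PT-like cells *osr2* was higher in multiciliated-like cells by 2.06 ± 0.51 (edgeR adjusted p = 0.0051), a call lost without library 2 (1.496, edgeR adjusted p = 0.072). PT-like cells were above DT-like cells by 2.12 ± 0.54 (edgeR adjusted p = 0.0049). This call was lost without library 1 (1.94, edgeR adjusted p = 0.053) and without the cells of highest doublet score (1.87, edgeR adjusted p = 0.051), and with the first clustering alone, before nephron cells were clustered again, the fold was 0.09 (edgeR adjusted p = 0.92). NPC-like cells as clustered held 82.6, 109, 95.3 and 57.4 CPM, with log2 folds of 3.28 ± 0.55 against DT-like cells (edgeR adjusted p = 0.00033) and of 1.16 ± 0.50 against PT-like cells (edgeR adjusted p = 0.069; 0.017 with the library as a term). When cells were assigned by their markers alone both of these folds turned negative, to -0.93 (edgeR adjusted p = 0.56) and -2.98 (edgeR adjusted p = 0.020), so no direction is given for *osr2* in NPC-like cells.

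The NPC-like sub-cluster held cells with different markers, and the 10 genes split along them. By a count of markers per cell, 52 of its 146 cells carried the progenitor list, 25 the multiciliated list, 27 the distal list and 13 the proximal list, and 29 had too few markers or a tie. The first of these held *pax2a* at 2319, 1830, 2593 and 2327 CPM in libraries 1 to 4, above the NPC-like class as a whole in each. They also held 230 of the 254 *lmx1bb* UMIs of the class (90.6%), but only 3 of its 159 *osr2* UMIs. *hnf1ba* had 2 UMIs in these 52 cells, *emx1*, *irx3b* and *hnf4a* had 0, and *pax8* had 29. The 25 cells with multiciliated markers held 139 of the 159 *osr2* UMIs (87.4%), at 399, 570, 221 and 230 CPM, together with *pax8* at 316, 631, 238 and 402 and *hnf1bb* at 371, 740, 295 and 987. The class also stood apart in doublet scores: 52.7% of NPC-like cells were among the 6% of cells with the highest scores of their library, against 13.04% of multiciliated-like, 18.3% of PT-like and 12.1% of DT-like cells. That share was 34.6% in cells with progenitor markers and 68.0% in those with multiciliated markers, where the median depth was 11124.5 and 15589 UMIs. Without the cells of highest score, 46 of the 159 *osr2* UMIs were left. The part of doublets in these values was not tested. The split was made after the values were seen and has no test of its own. The borders of the class were not firm: when the second clustering was run with arithmetic that rounds differently, 115 of the 146 cells stayed in an NPC-like class of 126 and the other 31 became DT-like. *irx3b* and *mecom* then failed the filter for low counts, and *pax8* was no longer called lower in NPC-like than in DT-like cells (-1.10, edgeR adjusted p = 0.077). *osr2* was then called higher than in PT-like cells (1.49, edgeR adjusted p = 0.023), and *lmx1bb* than in multiciliated-like cells (2.40, edgeR adjusted p = 0.030).

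**Figure D4:**
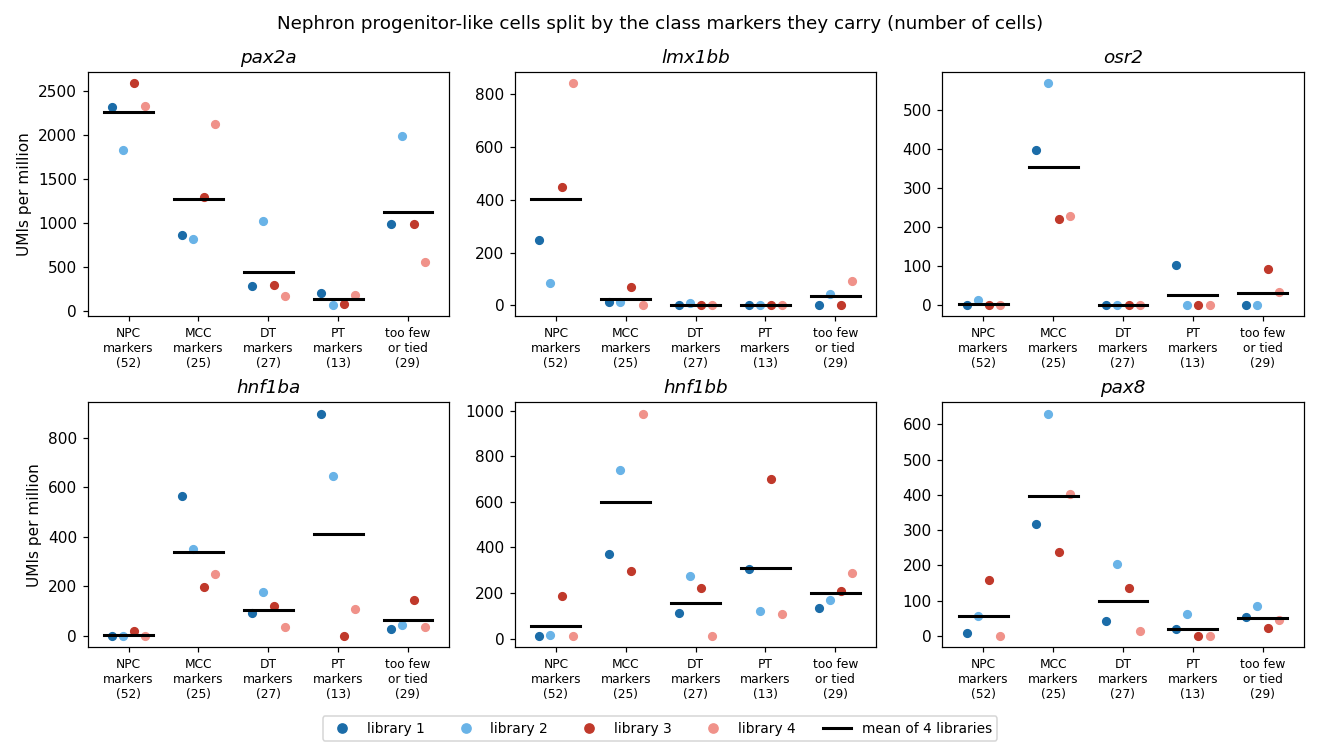
CPM of 6 genes in the NPC-like cells, split by the markers a cell carries: progenitor (NPC), multiciliated (MCC), distal (DT), proximal (PT), or too few or tied, with the number of cells. Points are libraries 1 to 4 and bars their mean. *pax2a* and *lmx1bb* are highest in the 52 cells with progenitor markers, and *osr2* lies between 221 and 570 in the 25 cells with multiciliated markers, against 0 to 13.9 in the cells with progenitor markers.

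*lmx1bb* had its highest level in NPC-like cells, at 94.8, 45.9, 113 and 291 CPM in libraries 1 to 4, followed by 5.26, 38.6, 19.8 and 62.9 in multiciliated-like cells. PT-like cells held 5.33, 0, 11.1 and 12.1, and DT-like cells 3.94, 1.66, 1.05 and 2.57. NPC-like cells did not overlap with PT-like or DT-like cells. The log2 fold was 5.28 ± 0.81 against DT-like cells (edgeR adjusted p = 0.00018) and 3.70 ± 0.74 against PT-like cells (edgeR adjusted p = 0.00075). Against multiciliated-like cells the fold of 2.12 ± 0.76 missed the threshold (edgeR adjusted p = 0.058), and it passed with the library as a term (2.07, edgeR adjusted p = 0.0042) and without library 2 (2.45, edgeR adjusted p = 0.048). In multiciliated-like against DT-like cells *lmx1bb* was called higher by 3.16 ± 0.90 (edgeR adjusted p = 0.019), a call lost without library 3 or 4 (edgeR adjusted p = 0.089 and 0.078). With the library as a term it was also higher in PT-like than in DT-like cells (1.61, edgeR adjusted p = 0.033; 1.57 ± 0.83 and edgeR adjusted p = 0.15 without it) and in multiciliated-like than in PT-like cells (1.57, edgeR adjusted p = 0.044; 1.58 ± 0.84 and edgeR adjusted p = 0.17 without it). Of the podocyte markers, *nphs1*, which encodes nephrin of the slit diaphragm, stood at 8.14 CPM in NPC-like and 2.36 in multiciliated-like cells. *podxl*, which encodes podocalyxin, stood at 96.6 and 11.8 in these classes, and *magi2a* at 9.77 and 7.075. *synpo* went the other way, at 4.88 in NPC-like and 28.3 in multiciliated-like cells. *lmx1bb* had a UMI in 23.97% of NPC-like cells (17.3% to 31.7%), in 53.8% of those that carried progenitor markers, and in 0.46% of neutrophil-like cells.

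By class *emx1* was highest in DT-like cells, and it was also present in PT-like cells. DT-like cells held 166, 157, 67.2 and 76.1 CPM in libraries 1 to 4. In the other nephron classes *emx1* stood at 38.9, 19.7, 11.9 and 19.13 in NPC-like cells, 94.6, 61.8, 22.6 and 17.2 in multiciliated-like cells and 102, 98.2, 40.4 and 42.7 in PT-like cells. In every library the order was DT-like, PT-like, multiciliated-like, with NPC-like cells lowest in libraries 1 to 3. *emx1* was lower in NPC-like than in DT-like cells by -2.91 ± 0.43 (edgeR adjusted p = 0.00014) and than in PT-like cells by -2.09 ± 0.43 (edgeR adjusted p = 0.00090), and lower in multiciliated-like than in DT-like cells by -1.84 ± 0.43 (edgeR adjusted p = 0.0060). In PT-like against DT-like cells the log2 fold of -0.81 ± 0.38 missed the threshold (edgeR adjusted p = 0.11) and passed with the library as a term (-0.90, edgeR adjusted p = 0.0048). In multiciliated-like against PT-like cells the fold of -1.03 ± 0.43 (edgeR adjusted p = 0.082) passed with the library as a term (-1.04, edgeR adjusted p = 0.010) and without library 1 (-1.37, edgeR adjusted p = 0.046). With the library as a term *emx1* was also lower in NPC-like than in multiciliated-like cells (-1.04, edgeR adjusted p = 0.033; -1.07 ± 0.47 and edgeR adjusted p = 0.12 without it). Within the distal class it ranged widely. The sub-cluster led by *atp1a1a.5* and *slc12a10.3*, a sodium pump subunit and a cotransporter of the Slc12 family, held 666, 438, 199 and 308 CPM. The sub-cluster led by *slc9a3.2* held 187, 368, 185 and 173, and the one led by *slc12a3* and *slc12a1* 48.9, 85.4, 30.9 and 28.1. Every library of the *slc12a3* sub-cluster lay below every library of the other 2. The *slc12a3* sub-cluster was also below the PT-like class in each library. The largest distal sub-cluster, led by mitochondrial transcripts, held 6 UMIs of *emx1* in 290 cells (8.02 CPM on average). A high level of *emx1* was thus not common to all distal sub-clusters.

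*irx3b* was the scarcest of the 10 genes, with 172 UMIs in all. It stood at 2.43, 4.38, 5.96 and 0 CPM in NPC-like cells, 21.0, 0, 2.83 and 28.6 in multiciliated-like cells, 7.99, 14.9, 13.5 and 10.5 in PT-like cells and 16.6, 21.6, 7.32 and 2.25 in DT-like cells. PT-like and DT-like cells overlapped and did not differ by the test (edgeR adjusted p = 0.97). Only NPC-like cells were called different, lower than PT-like cells by -2.25 ± 0.82 (edgeR adjusted p = 0.034) and than DT-like cells by -2.22 ± 0.81 (edgeR adjusted p = 0.047). These calls rest on 6 UMIs in NPC-like cells and were lost without library 2 or 3 (edgeR adjusted p = 0.079 and 0.064 against PT-like cells, 0.15 and 0.072 against DT-like cells). Without library 1 *irx3b* failed the filter for low counts, so the calls could not be refitted. Of 82 distal UMIs, 63 lay in the sub-cluster led by *slc12a3* and *slc12a1*, which encode sodium-coupled chloride cotransporters. Another 13 lay in the one led by mitochondrial transcripts. The sub-clusters led by *atp1a1a.5* and *slc12a10.3*, by *tnks1bp1* and *sox13* and by *slc9a3.2* had 0, where *emx1* stood at 403, 52.2 and 228 CPM on average.

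*mecom* parted from the rest of the set in its cell types and in its libraries. In nephron cells it was distal: DT-like cells held 567 UMIs, against 29 in NPC-like, 2 in multiciliated-like and 3 in PT-like cells. The ratio of CPM was 0.0112 in PT-like against DT-like cells (exact 95% interval of 0.00231 to 0.0330) and 0.0391 in multiciliated-like against DT-like cells (0.00473 to 0.142). Both were called lower (edgeR adjusted p = 0.00043 and 0.014), the second not when cells were assigned by markers alone (edgeR adjusted p = 0.050). *mecom* was lower in NPC-like than in DT-like cells by -2.41 ± 0.87 (edgeR adjusted p = 0.044), a call lost without library 1 or 2 (edgeR adjusted p = 0.068 in both). It was higher in NPC-like than in PT-like cells, with a ratio of 23.3 (7.21 to 119) and an edgeR adjusted p = 0.026, and with the library as a term also than in multiciliated-like cells (edgeR adjusted p = 0.025, beside 0.27 without it). Without library 3, without library 4 and in libraries 1 and 2 alone, *mecom* failed the filter for low counts. None of its calls between nephron classes could be refitted there. Of the 29 UMIs in NPC-like cells, only 2 lay in the 52 cells that carried progenitor markers. Cells with distal markers held 13, those with multiciliated markers 8 and those with too few or tied markers 6. Outside the nephron *mecom* was found in VEC-like cells, at 97.9 ± 105 CPM, in RIC-like cells, at 27.7 ± 38.7, and in HSPC-like cells (hematopoietic stem and progenitor), at 6.54 ± 6.63 (SD, n = 4 libraries each). In mice the gene is required in blood stem cells.

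The wide spread of *mecom* followed the pairs of libraries. It had 744 and 610 UMIs in libraries 3 and 4, against 38 and 31 in libraries 1 and 2. The ratio in CPM was 14.0 over all cells and 7.57 within nephron-class cells. DT-like cells held 82.6 and 68.7 CPM in libraries 3 and 4, against 14.98 and 14.95 in libraries 1 and 2. VEC-like cells held 214 and 159 in libraries 3 and 4, against 11.4 and 7.05 in libraries 1 and 2, and HSPC-like cells 10.4 and 13.9, against 0.81 and 1.05. The pairs did not overlap in any of these classes. Of all genes listed in all libraries with at least 10 UMIs in a class, 2767 of 16153 were likewise higher in both of libraries 3 and 4 in DT-like cells, 3626 of 11987 (30.2%) in VEC-like cells and 7579 of 16782 (45.2%) in HSPC-like cells. In RIC-like cells only library 4 was high, at 85.7 CPM, beside 9.32, 7.25 and 8.39 in libraries 1 to 3. The ratio of libraries 3 and 4 to libraries 1 and 2 was 5.10 (exact 95% interval of 3.65 to 7.33) in DT-like cells and 20.4 (10.2 to 47.9) in VEC-like cells. Of 20107 genes listed in all libraries with at least 100 UMIs, 593 (2.95%) were at least 10-fold higher in libraries 3 and 4 over all cells, and 136 (0.676%) at least 10-fold lower. Nothing in the labels sets the pairs apart, so a difference of counting and a difference of fish cannot be told apart. In PT-like cells *mecom* had 3 UMIs in libraries 3 and 4, against 0 in libraries 1 and 2.

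**Figure D5:**
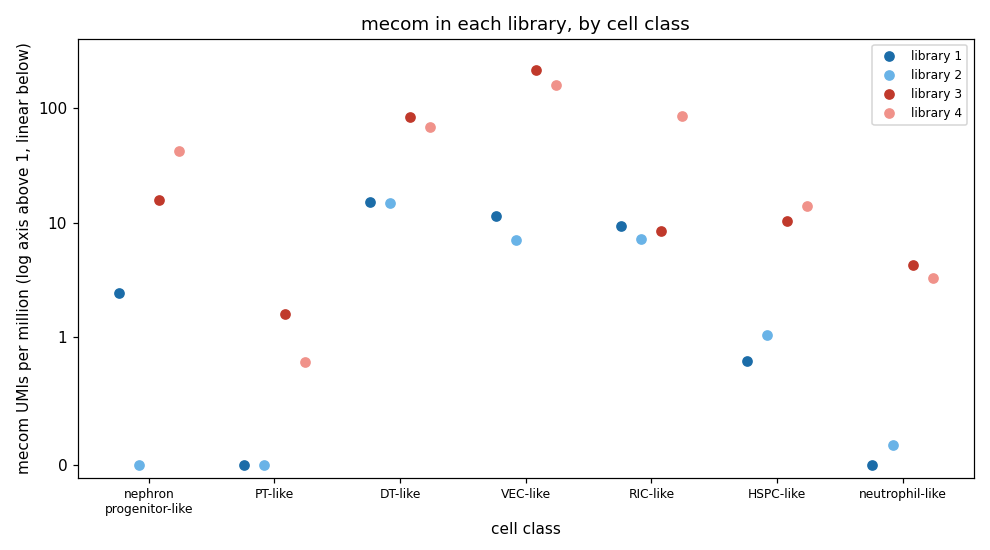
*mecom* in CPM (vertical axis, logarithmic above 1 and linear below) in 7 cell classes. Points are libraries 1 to 4. In DT-like, VEC-like and HSPC-like cells libraries 3 and 4 lie above libraries 1 and 2, while PT-like cells stay between 0 and 1.58.

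Other genes of the set moved with the libraries in smaller steps and in both directions. *lmx1bb* was 3.03-fold higher in libraries 3 and 4 over all cells, *osr2* stood at 0.427 and *hnf4a* at 0.529 of its level in libraries 1 and 2, and *pax2a* and *hnf1bb* at 0.930 and 1.06. Ratios over all cells also depend on the share of each class in a library. Within nephron-class cells the ratio was 1.64 for *lmx1bb*, 0.354 for *osr2*, 0.335 for *hnf4a*, 0.671 for *pax2a* and 0.762 for *hnf1bb*. In DT-like cells 8 of the 10 genes were lower in both of libraries 3 and 4 than in either of libraries 1 and 2, all but *mecom*, which was higher, and *lmx1bb*, which overlapped. Of all 16153 genes listed in all libraries with at least 10 UMIs in this class, 54.3% were lower in the same way, and 71.4% were either lower or higher without overlap. Genes not listed in all libraries took 23.5% and 23.6% of the UMIs of DT-like cells in libraries 3 and 4, against 0.0589% and 0.147% in libraries 1 and 2, which lowers the CPM of every other gene. Per 1000000 UMIs of shared genes, *hnf1ba* in DT-like cells was 214 and 195 in libraries 3 and 4, against 333 in each of libraries 1 and 2, while *hnf1bb* was 194 and 193 in libraries 3 and 4, against 197 and 227 in libraries 1 and 2. On this scale the same count of 8 genes was lower in both of libraries 3 and 4, where 40.1% of all genes were. Both pairs of libraries were in every comparison between classes, but the share of UMIs of genes not listed in all libraries differed between classes. In libraries 3 and 4 it was 15.3% and 16.2% in PT-like, 10.2% and 12.8% in multiciliated-like and 9.96% and 8.75% in NPC-like cells. The CPM of DT-like cells was thus lowered most in these libraries.

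A list of 40 other nephron transcription factors was set beside the 10 genes, and 38 of them were among the genes listed in any library. Of these, 18 passed the filter for low counts in the comparisons among nephron classes. The share of all genes tested that was called in the same direction is given in parentheses. In PT-like against DT-like cells 5 were higher (16.2%) and 11 lower (20.5%), with a median log2 fold of -1.68 beside -0.07 over all genes. The ones with the largest folds were *tfap2b* (-8.83), *tfap2a* (-8.72) and *gata3* (-7.75), which had 1, 1 and 3 UMIs in PT-like cells against 1081, 1103 and 1255 in DT-like cells, so these fitted folds depend on few UMIs. *tfap2a* and *tfap2b* are AP-2 factors known in the distal nephron of zebrafish embryos and mice. In multiciliated-like against DT-like cells 6 were higher (8.82%) and 8 lower (12.5%), led by *esrrga* (0 against 307 UMIs), *foxj1b* (168 against 3 UMIs) and *gata3* (1 against 1255 UMIs). *foxj1b* is a paralogue of *foxj1a*, which drives motile cilia. In multiciliated-like against PT-like cells 6 were higher (15.5%) and 2 lower (17.0%), led by *grhl2b*, *tfap2a* and *foxj1b*. In NPC-like against DT-like cells 3 were higher (14.5%) and 8 lower (15.9%), led by *foxj1b*, *gata3* and *tfap2b*, and against PT-like cells 8 were higher (23.3%) and 2 lower (21.1%), led by *tfap2a*, *grhl2b* and *tfap2b*. In NPC-like against multiciliated-like cells 2 were higher (10.2%) and 4 lower (9.97%), led by *foxj1b*, *gata3* and *tfap2b*. The median log2 fold of the 18 factors was -0.59 beside -0.11 over all genes in multiciliated-like against DT-like cells, 0.33 beside 0 in multiciliated-like against PT-like, -0.76 beside -0.03 in NPC-like against DT-like, 0.86 beside 0.18 in NPC-like against PT-like and -0.54 beside 0.13 in NPC-like against multiciliated-like cells. Against non-nephron cells 21 of 26 tested were higher (24.1%) and 1 lower (25.1%) in nephron-class cells, led by *tfap2a* (8.67), *pou3f3b* (8.37) and *foxj1a* (8.01).

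Genes with the most similar patterns were sought over the 60 sums of the 15 named classes and 4 libraries, among 13000 genes, by the Pearson correlation of log2(CPM + 1). All sums of a library share its depth, and a correlation is given as a description. *pax2a* was most like *rassf7b*, *ttll6* and *foxj1a* (r = 0.957, 0.957 and 0.953), of which *foxj1a* is a regulator of motile cilia and *ttll6* a tubulin-modifying enzyme. Among nephron classes the order differed: *foxj1a* averaged 450 CPM in multiciliated-like and 96.8 in NPC-like cells, while *pax2a* was highest in NPC-like cells. *pax8* was most like *cldn8*, a claudin of tight junctions, *c1qtnf9* and *cers3b* (0.961, 0.952 and 0.942). *hnf1ba* was most like *krtcap3*, *cdh17*, a cadherin of zebrafish tubules, and *kcnj15* (0.968, 0.965 and 0.963). *hnf1bb* was most like *tmem30c*, its paralogue *hnf1ba* and *tmem45b* (0.968, 0.963 and 0.960). *hnf4a* followed *slc2a9l1*, *slc22a21* and *aadacl4* (0.931, 0.916 and 0.912), of which 2 are transporter genes. *emx1* followed *LOC108180802*, *LOC798089* and *kcnj15* (0.981, 0.975 and 0.975), and *osr2* followed *emx2*, *cd151l* and *si:ch211-163l21.7* (0.899, 0.893 and 0.890). *irx3b* followed *traf4b*, *ggt1a* and *zgc:194392* (0.914, 0.905 and 0.901), *lmx1bb* followed *caln2*, *fras1* and *pdgfaa* (0.847, 0.819 and 0.812), and *mecom*, the least matched, followed *ext1a*, *kaznb* and *il11ra* (0.830, 0.826 and 0.794).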

How the data were processed

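The authors deposited, for each of the 4 libraries, UMI counts per gene and cell, whole numbers without normalization and named by gene symbol. They assessed reads with fastp and used UMI-tools, and the submitters' processing notes name GRCz11 and Seurat 4.2. No source used here gives the aligner, annotation or cell filters. All 31008 barcodes were used. Counts were clustered in Seurat 5.3.0 (2000 variable genes, scaled within libraries, 30 components, resolution 0.6), and nephron cells were clustered again (20 components). The second clustering depended on rounding in the linear algebra library. The partition that the default setting gave is reported, a choice made after the partitions were seen to differ, and the other is given as an alternative. Clusters were named by markers (mean log2 ratio of at least 1, pseudocount of 10 CPM, at least 3 markers detected). Levels are UMIs per 1000000 UMIs of the class (CPM). Counts were summed over the cells of a class in each library where it had at least 3 cells. These totals were 129514 to 3826103 UMIs in the nephron classes, and depth limits genes with few UMIs. They were tested with edgeR 4.0.16 (TMM, filterByExpr, quasi-likelihood, no library term, SE as the log2 fold over the root of F). The classes of 1 library were captured together, so the library pairs them, and the deviations of their sums from the class means correlated between 0.172 and 0.621 over 24 pairs (median of 0.481). Over 72 pairs of sums from different classes and libraries the correlation ran from -0.651 to 0.603 (median of -0.349). Blocked values are given where they changed a call. DESeq2 1.42.0 was an alternative. In simulated counts for PT-like against DT-like cells (8837 genes), 30.4% of 2-fold and 100% of 4-fold changes were called, with 8 of 8646 unchanged genes called. The simulation gave every gene a dispersion of 0.1 and held no effect of the library. It therefore does not give the share called for genes with a wider spread. Scrublet (scanpy 1.11.5) called 6 cells, too few to have worked, so no cell was removed as a doublet. Shares have exact Clopper-Pearson 95% intervals. In 38 cells led by interrenal and follicle genes and 20 led by liver genes, all from libraries 1 and 2, the cells were left out of the classes, a choice made after seeing the data. The 10 genes, the marker lists and the list of other factors were chosen with earlier results of these data known. The level of 1 podocyte marker is not reported here. Named genes were these 10, the up to 3 other factors of largest fold called in a comparison, and the 3 genes most like each of the 10.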

Additional observations from a re-analysis of the deposited data

Results flagged for a closer look

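In 2 of 50 groups of 4 library values, 1 library stood far from the other 3 by Dixon's criterion, which chance would do in about 1 group of 20. *pax2a* in multiciliated-like cells was 1266 CPM in library 2, above 857, 908 and 835 in libraries 1, 3 and 4. *hnf4a* in DT-like cells was 11.04 CPM in library 1, above 1.66, 0 and 0.64 in libraries 2 to 4. In this class 17 of the 18 *hnf4a* UMIs lay in the sub-cluster with proximal and distal genes together, which had 87.4 CPM of *hnf4a* in library 1.

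Signal was also found in cells left out of the comparisons. In the 38 cells led by interrenal and follicle genes, *osr2* had 37 UMIs, all in 3 cells with 13, 9 and 15 UMIs, and these cells held 231, 141 and 57 UMIs of *cyp17a1*, a steroidogenic enzyme. In the 20 cells led by liver genes, *hnf4a* had 11 UMIs in 8 cells of library 1, and these held between 192 and 2953 UMIs of the apolipoprotein gene *apoa2*. *hnf4a* is known as a hepatocyte factor. Neither kind of cell was found in libraries 3 and 4.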

How the results depend on the processing

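Of 44 calls among 70 comparisons of a gene between classes, 24 held in every alternative that gave a value, and the direction of 1 call (*osr2* in NPC-like against DT-like cells) turned. Among 1082 refits of the 61 comparisons with a log2 fold of at least 0.5, 948 kept direction and side of the threshold, 73 lost the call, 55 gained it and 6 turned direction, and 7 of the other 9 comparisons changed sign somewhere. The cause of the changes below was not tested. Cells assigned by markers without clustering gave log2 folds of -0.93 and -2.98 for *osr2* in NPC-like against DT-like and PT-like cells, -1.99 for *mecom* and -2.35 for *pax8* in NPC-like against multiciliated-like cells, and 2 genes called in multiciliated-like against DT-like and 8 in NPC-like against multiciliated-like cells. *hnf4a* in NPC-like against multiciliated-like cells (-0.54) was 4.77 in libraries 1 and 2 alone, and between -1.55 and 0.55 when each library was left out in turn. The counts of genes called moved by over 1.5 times as follows. Thinning cells to 1000 UMIs left 3 genes tested, of which 3 were called in PT-like against DT-like, 0 in multiciliated-like against DT-like, 2 in multiciliated-like against PT-like, 2 in NPC-like against DT-like, 3 in NPC-like against PT-like and 0 in NPC-like against multiciliated-like cells. In libraries 1 and 2 alone, 3 were called in multiciliated-like against DT-like and 3 in NPC-like against multiciliated-like cells, and in libraries 3 and 4 alone 3 in the last of these. With the library as a block, 8 were called in multiciliated-like against PT-like cells and 5 in NPC-like against multiciliated-like cells, and the calls it changed are given beside each gene. In NPC-like against DT-like cells (8 called), 4 were called without TMM factors and 5 without the highest doublet scores. In NPC-like against multiciliated-like cells (1 called), genes scaled over all libraries gave 4, leaving out the highest doublet scores 2, DESeq2 2 and no filter 2. The second clustering with other rounding, added after seeing the data, tested 8 of the 10 genes and called 5 in NPC-like against DT-like and 2 in NPC-like against multiciliated-like cells. Leaving out each library in turn gave 3 to 5 genes in multiciliated-like against DT-like, 2 to 6 in multiciliated-like against PT-like, 4 to 6 in NPC-like against DT-like and 0 to 2 in NPC-like against multiciliated-like cells, 5 to 6 in PT-like against DT-like, 7 to 8 in NPC-like against PT-like and 9 against non-nephron cells. Between nephron classes 9 of the 10 genes were tested without library 1, 3 or 4. The first clustering alone gave no multiciliated-like class. Sub-clusters left out of the DT-like class and unnamed cells counted as non-nephron were alternatives added after seeing the data.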
